A study of Mus musculus with 12 samples.

Results

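The 10 genes described here encode cytosolic and mitochondrial heat shock chaperones and their partners. They are Hspa1a, Hspa1b, Hspa4l, Hspa8, Hsph1, Dnajb1, Hsp90aa1, Hspd1, Hspe1 and Bag3. They were chosen from measured values of these same libraries, in which the HSP70 genes had been seen to differ with treatment and genotype, so their changes are given as a description and no test was run on them. They make up 10 of the 22273 genes listed for gastrocnemius and 10 of the 22252 listed for liver and for gonadal WAT (white adipose tissue), and all 10 were above 0 in all 12 libraries. Hspa1a and Hspa1b are near-identical copies and are also given as a sum.

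Chaperones of the HSP70 family bind short hydrophobic stretches of unfolded proteins and release them in cycles of ATP hydrolysis. J-domain proteins such as Dnajb1 deliver the client and start the hydrolysis, nucleotide exchange factors such as Hsph1 and Bag3 reset the cycle, and HSP90 takes over part of the clients, among them the glucocorticoid receptor itself. Heat, misfolded protein and other proteotoxic stress activate the transcription factor HSF1, which binds heat shock elements, repeats of the unit GAA in alternating orientation, in front of the inducible members. Hspa1a and Hspa1b are the classical inducible HSP70 genes, whereas Hspa8 encodes the constitutive HSC70.

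Male C57BL/6J mice drank water holding 1% ethanol for 4 weeks from 8 weeks of age, either alone (vehicle) or with 100 µg/mL of CORT (corticosterone, the stress steroid of mice). GRf/f mice carry loxP sites around exon 3 of the glucocorticoid receptor gene Nr3c1 and no Cre. GRmKO mice carry the same floxed alleles plus a Cre transgene under the Acta1 promoter, which is active in muscle fibres from development on, so by design the other cells of muscle, and those of liver and fat, keep the receptor. RNA of 3 mice was pooled into 1 library for each tissue, genotype and treatment, which gives 4 libraries in each of the 3 tissues and 1 library in each of the 12 groups. There is therefore no replicate check on any difference below, the spread between mice is unknown, and whether 1 set of animals gave muscle, liver and fat was not stated.

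Each library held between 19394572 and 20940660 expected counts, and the values are given as CPM, which sets every library to the same total. A change is log2 of the ratio of 2 CPM values with 0.5 CPM added to each, and a gene was called higher or lower when it changed at least 2-fold. The 95% intervals cover counting error only. Nr3c1 in gastrocnemius was at 113 CPM in GRf/f vehicle, 90.4 in GRf/f CORT, 46.4 in GRmKO vehicle and 35.5 in GRmKO CORT. In liver it lay between 45.2 and 60.9 CPM and in gonadal WAT between 111 and 158, with no 2-fold difference between genotypes. The summed level of 6 myofibre genes was at least 83160 CPM in the gastrocnemius libraries, that of 10 hepatocyte genes at least 99750 in liver and that of 7 adipocyte genes at least 24320 in gonadal WAT, so each tissue carried its own markers.

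The 2 inducible HSP70 genes lie on chromosome 17 as single-exon genes on the minus strand. The 250 bases before their start sites, credited to RefSeq on the build GRCm38.p6, are printed because they show how alike the copies are: they differ at 3 of 250 positions. The capitals mark the one match to GAANNTTC in each, a heat shock element of 2 units, 104 to 97 bases before the start site. The Hspa1b window is chr17:34959239-34959488 and the Hspa1a window chr17:34972157-34972406, both written 5′ to 3′ on the minus strand.
Hspa1b: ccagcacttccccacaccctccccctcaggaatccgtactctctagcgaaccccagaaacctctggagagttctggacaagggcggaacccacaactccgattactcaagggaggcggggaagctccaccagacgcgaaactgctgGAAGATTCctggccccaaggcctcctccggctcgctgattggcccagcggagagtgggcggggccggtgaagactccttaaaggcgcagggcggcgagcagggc
Hspa1a: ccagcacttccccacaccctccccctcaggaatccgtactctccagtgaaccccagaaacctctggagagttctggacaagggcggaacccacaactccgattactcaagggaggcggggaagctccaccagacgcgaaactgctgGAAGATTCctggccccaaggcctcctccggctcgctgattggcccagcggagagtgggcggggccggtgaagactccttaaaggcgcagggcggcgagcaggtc

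The likeness extends into the transcripts. Of the 2868 windows of 100 bases in the Hspa1a transcript, 1350 (47.1%) occurred letter for letter in the Hspa1b transcript, which is 49.9% of the Hspa1b windows, and no Hspa1b window occurred in Hspa8. Reads from those stretches cannot be assigned to one copy by sequence, so the split between the copies is uncertain and the sum is the firmer value. Hspa1a took 50% to 53.1% of the sum in the 4 gastrocnemius libraries, 8.0% to 11.7% in the 4 liver libraries and 38.4% to 41.3% in the 4 gonadal WAT libraries. The share thus differed more between tissues than between the libraries of a tissue.

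In gastrocnemius the inducible HSP70 genes had the largest CORT changes of the 10 members, in both genotypes. The sum of Hspa1a and Hspa1b was 62.9 CPM in GRf/f vehicle (95% Wilson interval 59.5 to 66.5), 1466 in GRf/f CORT (1449 to 1483), 28.7 in GRmKO vehicle (26.4 to 31.1) and 245 in GRmKO CORT (238 to 252). CORT over vehicle was thus 23.3-fold in GRf/f (exact 95% interval 22.0 to 24.7) and 8.54-fold in GRmKO (7.83 to 9.33). The GRmKO library was the lower one under both treatments, at 0.456 times GRf/f under vehicle (0.412 to 0.504) and 0.167 times under CORT (0.162 to 0.172). Both copies moved alike: Hspa1a was at 33.4, 733, 15.0 and 126 CPM and Hspa1b at 29.5, 733, 13.7 and 119 CPM, in the order GRf/f vehicle, GRf/f CORT, GRmKO vehicle, GRmKO CORT, which is kept below.

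In liver, whose cells keep the receptor in both genotypes, the same sum was 21.3 CPM (19.4 to 23.4), 220 (214 to 227), 47.6 (44.7 to 50.6) and 80.1 (76.4 to 84.1). CORT over vehicle was 10.4-fold in GRf/f (9.39 to 11.4) and 1.68-fold in GRmKO (1.56 to 1.82). The genotypes differed in opposite directions under the 2 treatments, since GRmKO was 2.24 times GRf/f under vehicle (1.99 to 2.50) and 0.363 times under CORT (0.343 to 0.385). Hspa1a was at 2.07, 19.2, 3.80 and 9.33 CPM and Hspa1b at 19.2, 201, 43.8 and 70.8 CPM.

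Gonadal WAT showed the same order of libraries with smaller steps. The sum was 28.2 CPM (26.0 to 30.6), 100.3 (95.9 to 104.7), 54.1 (50.9 to 57.4) and 87.2 (83.2 to 91.3). CORT over vehicle was 3.55-fold in GRf/f (3.23 to 3.91) and 1.61-fold in GRmKO (1.49 to 1.74), GRmKO was 1.92 times GRf/f under vehicle (1.73 to 2.13), and it was 0.869 times under CORT (0.815 to 0.928). Hspa1a was at 10.8, 39.5, 21.5 and 36.0 CPM and Hspa1b at 17.4, 60.8, 32.6 and 51.1 CPM. In both liver and gonadal WAT, the 2 GRmKO libraries lay between the 2 GRf/f libraries for each copy and for the sum.

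**Figure D1:**
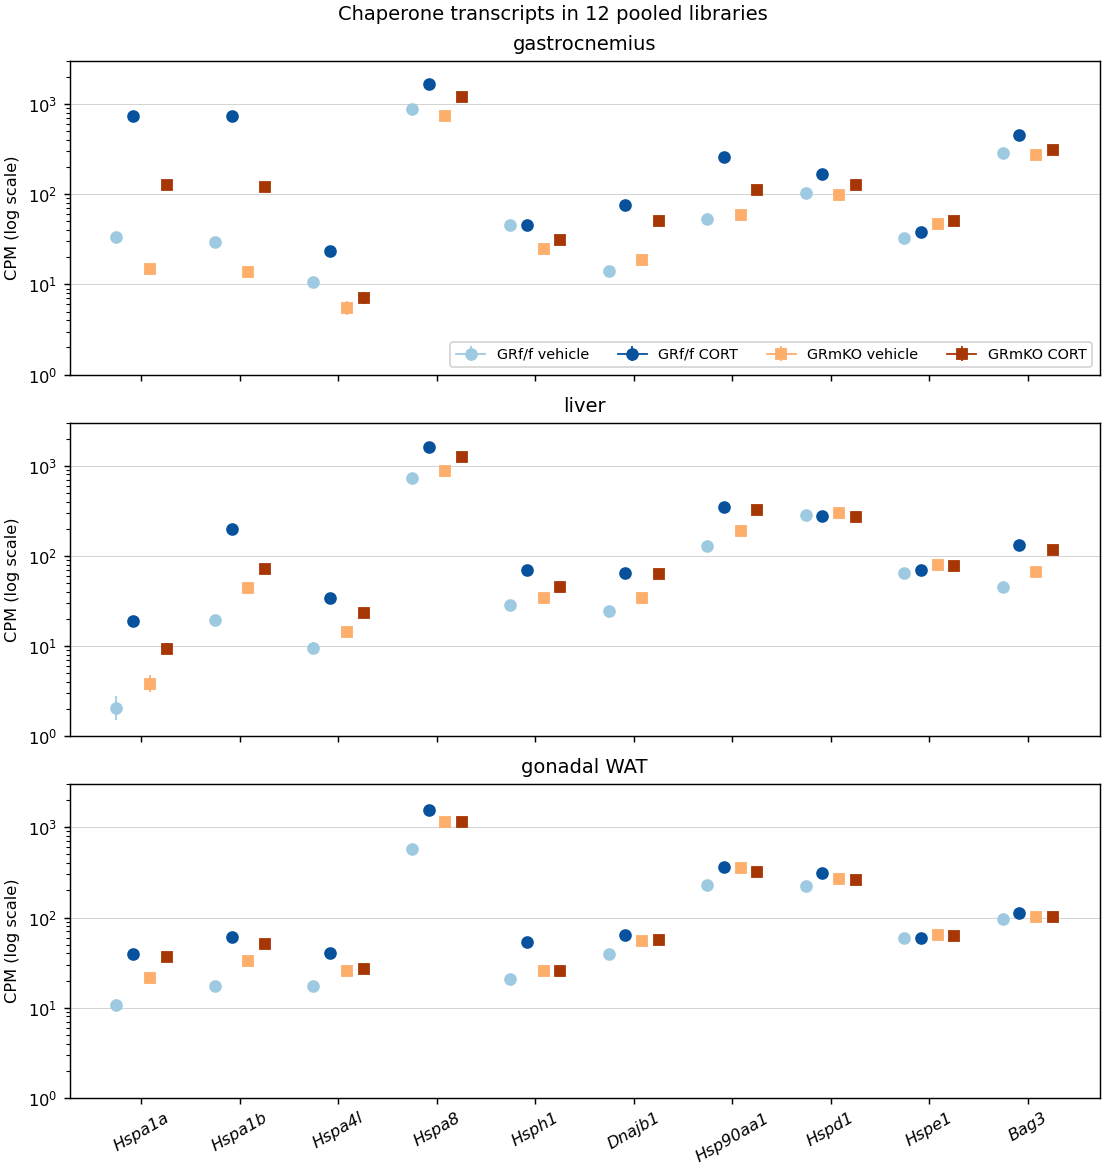
CPM of the 10 chaperone genes on a log axis in the 12 libraries, 1 point for each library, with circles for GRf/f, squares for GRmKO, pale colours for vehicle and dark colours for CORT, and lines for the 95% Wilson counting interval where it is wider than the point. The dark circle of GRf/f CORT is the highest of the 4 points for 8 genes in gastrocnemius, for 8 in liver and, all but Hspe1, for 9 in gonadal WAT.

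Hspa8 encodes HSC70, the constitutive HSP70 that clears and refolds proteins in unstressed cells. It had the highest CPM per kilobase of transcript of the 10 members in each of the 12 libraries, from 238 in the GRf/f vehicle library of gonadal WAT to 692 in the GRf/f CORT library of gastrocnemius. Its level was 878, 1656, 747 and 1194 CPM in gastrocnemius, 731, 1597, 870 and 1257 in liver, and 570, 1551, 1143 and 1156 in gonadal WAT. The log2 change with CORT in GRf/f was 0.92, 1.13 and 1.44 in the 3 tissues, against 0.68, 0.53 and 0.02 in GRmKO. In gonadal WAT the GRmKO vehicle library already stood 2.0-fold over GRf/f vehicle (1.96 to 2.05), and CORT over vehicle was 1.01-fold in GRmKO (0.993 to 1.03). Because Hspa8 changed less than the inducible pair, the pair's share of the CPM of the 3 genes in gastrocnemius went from 6.69% in GRf/f vehicle to 47.0% in GRf/f CORT, and from 3.7% to 17.0% in GRmKO.

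Hspa4l and Hsph1 encode HSP110 family proteins, which act as nucleotide exchange factors for HSP70. Hspa4l was at 10.7, 23.3, 5.48 and 7.05 CPM in gastrocnemius, 9.54, 34.4, 14.4 and 23.2 in liver, and 17.2, 40.3, 25.4 and 26.6 in gonadal WAT. It was past 2-fold higher with CORT in GRf/f in all 3 tissues, by 1.08, 1.80 and 1.2 on the log2 scale, and in GRmKO it changed by 0.34, 0.67 and 0.07. Hsph1 was at 45.2, 45.2, 24.6 and 30.9 CPM in gastrocnemius, 28.4, 70.4, 33.9 and 44.7 in liver, and 20.7, 53.8, 25.6 and 25.7 in gonadal WAT. Hsph1 was the one member whose CORT change was higher in GRmKO than in GRf/f in gastrocnemius, by 0.32 on the log2 scale, while its log2 change in GRf/f was 1.29 in liver and 1.36 in gonadal WAT.

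Dnajb1 encodes the main stress-inducible J-domain protein of the cytosol. It was at 14.0, 75.6, 18.5 and 50.3 CPM in gastrocnemius, 24.4, 65.1, 33.8 and 63.0 in liver, and 39.2, 63.3, 54.8 and 56.6 in gonadal WAT. In gastrocnemius it was past 2-fold higher with CORT in both genotypes, by 2.39 in GRf/f and 1.42 in GRmKO on the log2 scale. In liver the 2 CORT libraries were nearly level, with a log2 difference of GRmKO from GRf/f of -0.05, and the smaller CORT change in GRmKO (0.89 against 1.39) went with a higher GRmKO vehicle library.

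Hsp90aa1 encodes the inducible form of HSP90, the chaperone that holds steroid receptors in a hormone-binding state. It was at 53.7, 256, 59.6 and 111 CPM in gastrocnemius, 129, 350, 190.5 and 324 in liver, and 228, 363, 350 and 316 in gonadal WAT. The log2 change with CORT in GRf/f was 2.24, 1.44 and 0.67, and in GRmKO 0.89, 0.76 and -0.15. The 2 vehicle libraries of gastrocnemius were close, 0.15 apart on the log2 scale, and the CORT libraries were not, with a log2 difference of GRmKO from GRf/f of -1.2.

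Bag3 encodes a co-chaperone that links HSP70 to small heat shock proteins and to the autophagic disposal of damaged muscle proteins. It was at 289, 452, 273 and 313 CPM in gastrocnemius, 44.6, 133, 66.7 and 116 in liver, and 97.3, 113, 102 and 101 in gonadal WAT. Only the liver change in GRf/f, 1.57 on the log2 scale, passed 2-fold, against 0.65 in gastrocnemius and 0.21 in gonadal WAT. The corresponding changes in GRmKO were 0.79, 0.20 and -0.02.

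Hspd1 and Hspe1 encode HSP60 and HSP10, the folding chamber of the mitochondrial matrix and its lid, from head-to-head genes on chromosome 1. These were the 2 members that did not pass 2-fold in any of the 12 comparisons. Hspd1 was at 102, 167, 97.4 and 128 CPM in gastrocnemius, 283, 279, 299.5 and 272 in liver, and 224, 309, 270 and 258 in gonadal WAT. Hspe1 was at 32.6, 38.5, 46.6 and 50.7 CPM in gastrocnemius, 65.1, 70.0, 78.7 and 76.9 in liver, and 59.0, 58.9, 63.3 and 62.0 in gonadal WAT. The widest log2 change of the pair was 0.71, for Hspd1 with CORT in GRf/f gastrocnemius.

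Matches to heat shock elements lay in front of genes past 2-fold and of genes that were not. The RefSeq table held 11 start sites for 8 of the 10 members. A 2-unit element, GAANNTTC or TTCNNGAA on either strand, was found in the 250 bases before at least 1 start site of Hspa1a, Hspa1b, Hsph1, Hspd1 and Hspe1, and in 12.8% of all 32851 promoters of the table. A 3-unit element, GAANNTTCNNGAA or TTCNNGAANNTTC, which overlaps the 2-unit ones, was found in 0.466% of all promoters, and among the members in front of Hspd1 and Hspe1, the pair with no 2-fold change. For both genes the 3-unit matches overlap within the same stretch, which is printed because it holds the longest run of units among the members. The run is 3 overlapping 2-unit matches, in capitals, 89 to 72 bases before the Hspe1 start site on the plus strand. The printed bases are chr1:55088054-55088081 of GRCm38.p6, inside the span of the deposited Hspd1 transcript but outside its exons.
Hspe1: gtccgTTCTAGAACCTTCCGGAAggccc

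The palindromic glucocorticoid response element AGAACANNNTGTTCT was found in no member window and in 0.00913% of all promoters. A match describes the letters of these short windows and says nothing about binding.

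Across the 10 members, 5 were past 2-fold higher with CORT in GRf/f gastrocnemius (3.26% of 13543 genes above 0 in all 4 libraries) and 3 in GRmKO (1.51%). In liver 8 were higher in GRf/f (5.9% of 12485 genes) and 1, Hspa1a, in GRmKO (2.8%). In gonadal WAT 5 were higher in GRf/f (5.49% of 14218 genes) and none in GRmKO (3.47%). No member was past 2-fold lower with CORT in any tissue or genotype, against 4.72% and 5.02% of genes in gastrocnemius, 5.72% and 2.82% in liver, and 8.07% and 5.63% in gonadal WAT, each for GRf/f and then GRmKO. The members were chosen with these values in view, so nothing is read from the counts beyond the description.

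The median log2 change of the members with CORT was 1.00 in GRf/f and 0.53 in GRmKO in gastrocnemius, 1.41 and 0.68 in liver, and 0.94 and 0.01 in gonadal WAT. The median of all genes was -0.08 and -0.10, 0.00 and 0.05, and -0.07 and -0.12 in the same order. Scaling by TMM moved the median of all genes with CORT in GRmKO by 0.13 in gastrocnemius and by 0.12 in gonadal WAT, and relative to the median of all genes the members stood 0.63 and 0.13 higher there. The background counts move with it: in GRmKO gonadal WAT the shares of genes higher and lower were 4.54% and 4.20% after TMM scaling, in GRmKO gastrocnemius 1.93% and 3.66%, and in GRf/f gastrocnemius 4.02% and 3.82% after median-of-ratios scaling.

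**Figure D2:**
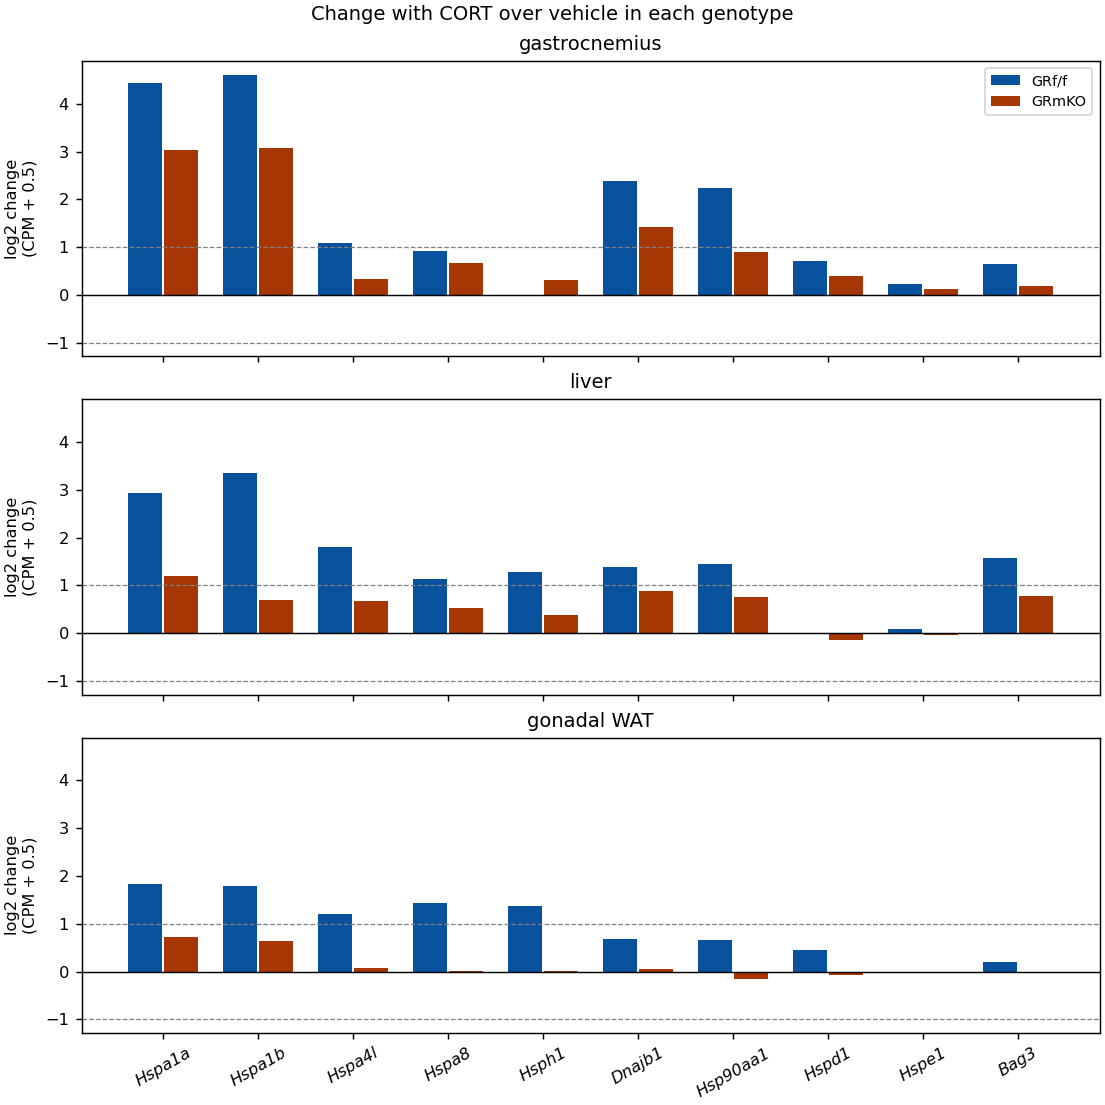
Log2 change of CPM + 0.5 with CORT over vehicle for the 10 genes in each tissue, with blue bars for GRf/f and brown bars for GRmKO, 1 library on each side of every ratio, and dashed lines at 2-fold. The brown bar is the lower one for 9 genes in gastrocnemius, all but Hsph1, and for all 10 in each of the other tissues.

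The CORT change was lower in GRmKO than in GRf/f for 9 of 10 members in gastrocnemius, where this held for 54.1% of genes, for 10 of 10 in liver (45.6%) and for 10 of 10 in gonadal WAT (54.8%). The exception in gastrocnemius was Hsph1, and in gonadal WAT the count is 9 after either other scaling. The median difference between the genotypes' log2 changes was -0.60, -0.73 and -0.94 for the members and -0.05, 0.05 and -0.05 for all genes. With 1 library for each group this difference was not tested.

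Viewed by genotype, the members were split by tissue under vehicle and aligned under CORT. Under vehicle in gastrocnemius, 2 members, Hspa1a and Hspa1b, were past 2-fold lower in GRmKO (3.18% of genes) and none was higher (4.59%). Under CORT 4 were lower, Hspa1a, Hspa1b, Hspa4l and Hsp90aa1 (5.31%), and none was higher (4.4%). The members' median was -0.16 under vehicle and -0.56 under CORT.

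In liver and gonadal WAT all 10 members were on the higher side in GRmKO under vehicle and 9 of 10, all but Hspe1, on the lower side under CORT, and these counts were the same after TMM and median-of-ratios scaling. Of all genes, 54.9% in liver and 54.6% in gonadal WAT were on the higher side under vehicle, and 57.9% and 45.5% under CORT. In liver, 1 member, Hspa1b, was past 2-fold higher in GRmKO under vehicle (1.26% of genes) and none was lower (1.04%), while under CORT Hspa1a and Hspa1b were lower (2.27%) and none was higher (2.44%). In gonadal WAT, 1 member, Hspa8, was higher under vehicle (1.07%) and none was lower (1.15%), while under CORT Hsph1 was lower (1.19%) and none was higher (1.43%). The members' medians were 0.51 under vehicle and -0.27 under CORT in liver, and 0.51 and -0.22 in gonadal WAT. Hspa8 in gonadal WAT lay on the threshold and no longer reached 2-fold after either other scaling, and Hspa1a in liver under CORT no longer reached it with 1 CPM added in place of 0.5.

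**Figure D3:**
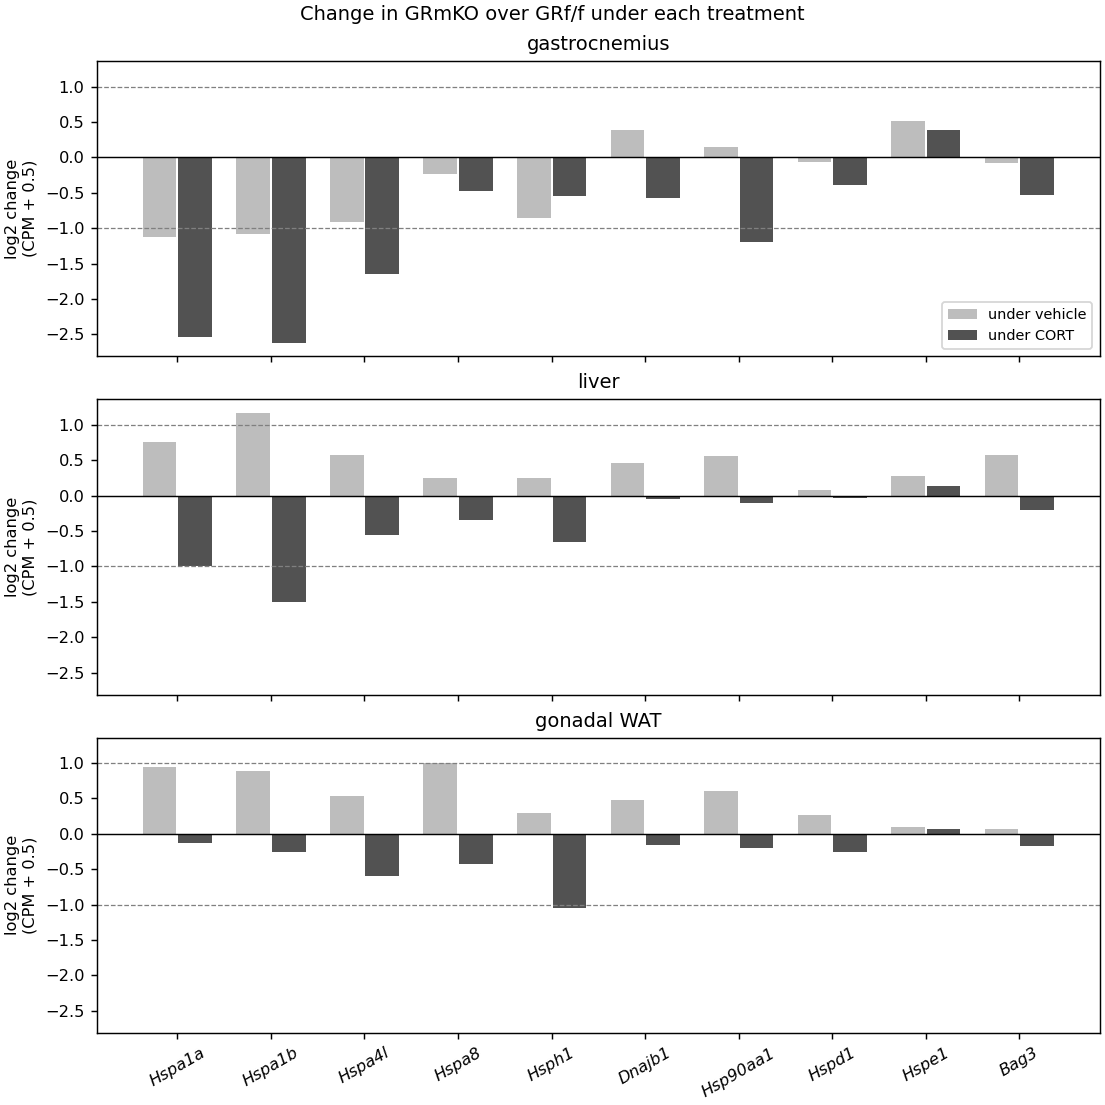
Log2 change of CPM + 0.5 in GRmKO over GRf/f for the 10 genes in each tissue, with light bars for the vehicle libraries and dark bars for the CORT libraries, 1 library on each side of every ratio, and dashed lines at 2-fold. In liver and gonadal WAT all 10 light bars point up and 9 of 10 dark bars point down, and in gastrocnemius the bars of Hspa1a and Hspa1b are past 2-fold lower under both treatments.

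The 2 ways of viewing share the same 4 libraries. Read by library, GRf/f CORT held the highest level of 8 members in gastrocnemius (24.2% of genes were highest there), of 8 in liver (28.2%) and of 9 in gonadal WAT (28.4%). GRf/f vehicle held the lowest level of 9 members in liver (29.5% of genes) and of 9 in gonadal WAT (25.4%). In gastrocnemius it held the lowest of 3 members, Dnajb1, Hsp90aa1 and Hspe1 (19.4%), and GRmKO vehicle that of the other 7 (17.7%).

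With CORT in GRf/f, the other groups of the chaperone system had medians nearer to 0 than the 10 members in each tissue, the small heat shock proteins of gonadal WAT excepted. In GRmKO gonadal WAT the members' median of 0.01 lay among those of the other groups, from -0.22 to 0.09, again with that exception. Among 16 chaperones and stress genes of the endoplasmic reticulum, 6 were past 2-fold higher with CORT in GRf/f liver, with a median of 0.71 over the list, and none in GRmKO liver, with a median of -0.04. They included Hspa5, the HSP70 of the endoplasmic reticulum, at 412, 1018, 561 and 548 CPM, and its exchange factor Hyou1 at 83.4, 190, 110 and 104 CPM. In GRf/f gonadal WAT 3 of 16 were higher, Hspa5, Sdf2l1 and Ddit3, with a median of 0.41, against none in GRmKO with 0.04. In gastrocnemius none of the 16 passed 2-fold in either genotype, with medians of 0.27 and -0.07.

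Among 7 small heat shock protein genes, Hspb1, Cryab and Hspb7 were past 2-fold higher with CORT in gastrocnemius of GRf/f and none was in GRmKO, and in liver Hspb1 was in both genotypes. Cryab, a chaperone of the sarcomere, was at 530, 1226, 558 and 730 CPM in gastrocnemius. In gonadal WAT the same 3 genes were past 2-fold higher in both genotypes, and Hspb7 was at 18.0, 999.9, 60.4 and 758 CPM. In GRmKO gonadal WAT the median log2 change with CORT was 0.95 over the 6 small heat shock protein genes above 0 in all 4 libraries, against 0.01 over the 10 members.

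Of 20 other J-domain genes, Dnaja1 and Dnajb4 were past 2-fold higher with CORT in GRf/f gastrocnemius and Dnajb4 in GRf/f liver. In GRmKO 1 of the 20, Dnajb2 in liver, was. Of 18 other HSP90 genes and co-chaperones, 1 was higher with CORT in GRf/f in each tissue, and in GRmKO in liver. It was Fkbp5, a well-known target of the glucocorticoid receptor, at 61.9, 355, 29.98 and 20.8 CPM in gastrocnemius, 47.7, 286, 70.2 and 147 in liver, and 141, 427, 206 and 264 in gonadal WAT. Unc45b, a myosin chaperone, was lower in both genotypes of gonadal WAT. Hsp90ab1, the constitutive HSP90, stayed within 2-fold in every comparison, with a largest log2 change of 0.75 with CORT in GRf/f liver.

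Of 10 other HSP70 and HSP110 genes, those past 2-fold higher with CORT were Hspa5 and Hyou1 in GRf/f liver and Hspa5 in GRf/f gonadal WAT, and Hspa12b was lower in GRmKO gastrocnemius and in both genotypes of gonadal WAT. Of 11 BAG and exchange factor genes, Bag1 was past 2-fold higher with CORT in GRf/f gastrocnemius and in both genotypes of liver and lower in GRf/f gonadal WAT, and Bag2 was lower in GRf/f gastrocnemius. None of the 7 listed subunits of the cytosolic chaperonin passed 2-fold with CORT, and of 11 other mitochondrial chaperones and proteases Clpx alone did, in GRf/f liver. Of 20 other genes commonly induced by heat, 5 were higher with CORT in GRf/f gastrocnemius, 3 in liver and 3 in gonadal WAT, against 0, 2 and 2 in GRmKO. These lists overlap, as Hspa5, Hspb1, Cryab and Dnajb4 stand in more than one.

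Of 6 heat shock factor genes and regulators, 5 were above 0 in all 4 libraries of gastrocnemius and of liver and 3 in gonadal WAT, and among these 1 passed 2-fold with CORT, Hsbp1l1 in GRf/f liver, from 0.239 to 4.01 CPM. Hsf4 in gonadal WAT stood outside this count at 0.708, 0, 3.05 and 0.990 CPM. Hsf1 itself was at 40.0, 33.4, 32.4 and 34.0 CPM in gastrocnemius, 8.94, 10.3, 9.59 and 9.28 in liver, and 16.6, 17.1, 18.0 and 15.3 in gonadal WAT. Its transcript stayed within 2-fold in each comparison, and these files hold no measure of the HSF1 protein.

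**Figure D4:**
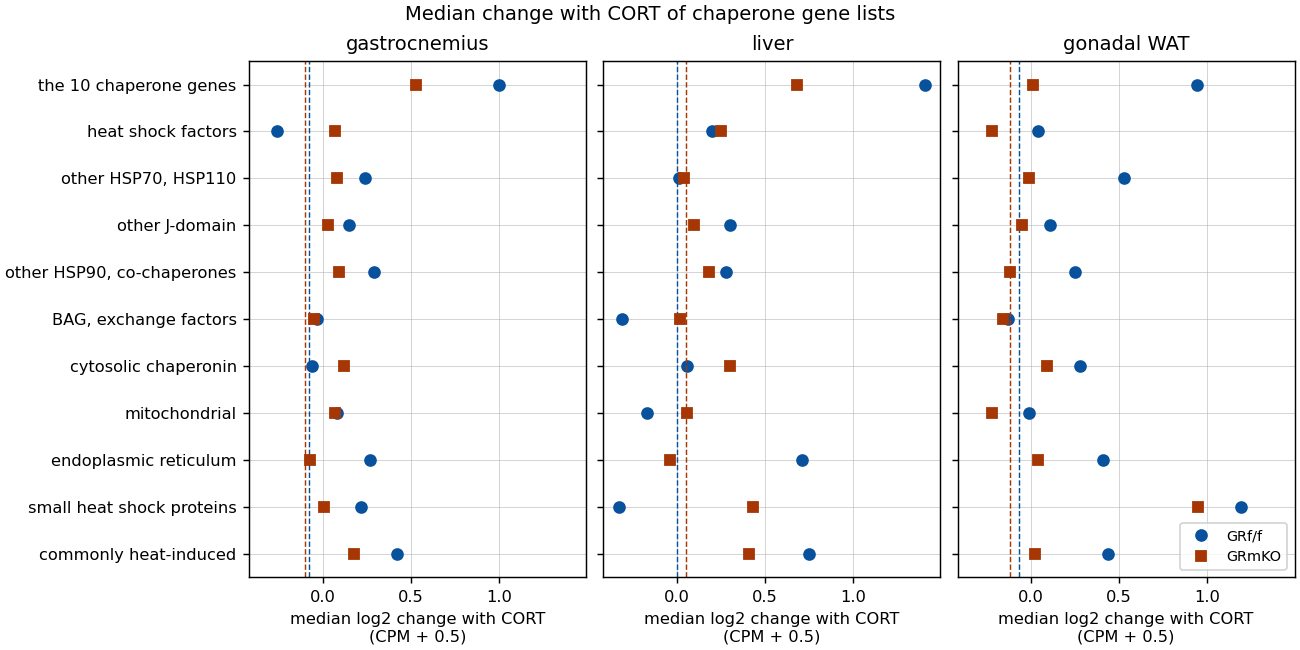
Median log2 change of CPM + 0.5 with CORT over vehicle for the 10 chaperone genes and 10 lists of related genes in each tissue, with blue circles for GRf/f, brown squares for GRmKO, and dashed lines at the median of all genes in the same colours. The 10 genes have the highest GRf/f median in gastrocnemius and liver (1.00 and 1.41), and the small heat shock proteins have it in gonadal WAT (1.19).

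Across the 12 libraries, the genes whose log2 level had the highest Pearson correlation with the summed Hspa1a and Hspa1b level, among 6602 genes with a mean of at least 5 CPM in every tissue and after each tissue's mean was taken out, were Ube2d3 (0.95), Hsp90aa1 (0.95), Dnajb4 (0.95), Etf1 (0.92) and Dnajb1 (0.92). The row of Ube2d3 bears another transcript in liver and gonadal WAT than in gastrocnemius. Among the other members the correlation was 0.87 for Hspa8, 0.86 for Hspa4l, 0.81 for Hspd1, 0.76 for Bag3, 0.64 for Hsph1 and 0.02 for Hspe1. The 12 points share tissue, library and depth in sets and are no independent samples.

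Markers of other cell types moved beside these results, and in bulk tissue fewer cells of a type and less RNA per cell cannot be told apart. In gonadal WAT 6 macrophage genes summed to 716, 1794, 925 and 1719 CPM and 4 endothelial genes to 548, 215, 507 and 287 CPM. The macrophage sum was higher and the endothelial sum lower in the CORT library of either genotype. In liver the macrophage genes summed to 132, 44.6, 106 and 65.8 CPM. In gonadal WAT 10 hepatocyte genes summed to 59.7, 74.4, 75.5 and 135 CPM. In liver 6 myofibre genes summed to low levels, 0.669, 0.650, 0.048 and 5.50 CPM. All 10 of the former and all 6 of the latter were highest in GRmKO CORT.

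In gastrocnemius 10 hepatocyte genes, secreted liver products among them, summed to 7.73, 10.7, 93.6 and 346 CPM, 7 adipocyte genes to 238, 611, 340 and 476 CPM, and 4 fibroblast genes to 1379, 490, 2052 and 710 CPM. The hepatocyte genes were highest in the GRmKO CORT library, as they were in gonadal WAT. Of the 7 adipocyte genes 6 were highest in GRf/f CORT, as the inducible HSP70 genes were, and Cfd, at 53.4, 22.6, 48.8 and 29.6 CPM, was lowest there. The 6 macrophage genes summed to 115, 117, 389 and 152 CPM in gastrocnemius, and 4 of them were past 2-fold higher in GRmKO than in GRf/f under vehicle. That GRmKO vehicle library is the one in which 7 members were lowest. The part of these cell types in the chaperone values of the 3 tissues was not tested.

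Immediate-early genes, which respond to handling and tissue collection as well as to stimuli, summed over 8 genes to 842, 825, 878 and 1248 CPM in gastrocnemius, 172, 162, 191 and 337 in liver, and 563, 276, 424 and 649 in gonadal WAT. The sums hide opposite moves: with CORT in GRf/f gastrocnemius 2 were past 2-fold higher, Atf3 and Jun, and 3 lower, Fosb, Egr1 and Ier2. Over those above 0 in all 4 libraries, the median log2 change with CORT was -0.95, -0.45 and -1.19 in GRf/f. In GRmKO it was 0.52, 0.55 and 1.03, both in the order gastrocnemius, liver and gonadal WAT, which is kept next. Red cell genes summed over 3 genes to 494, 486, 865 and 1588 CPM, 681, 308, 452 and 732 CPM, and 2787, 1369, 2883 and 3573 CPM. Both sums were highest in GRmKO CORT and lowest in GRf/f CORT in each tissue, though in gastrocnemius the 2 GRf/f libraries were close. By gene, 5, 7 and 6 of the 8 immediate-early genes and 3, 2 and 3 of the 3 red cell genes were highest in GRmKO CORT in gastrocnemius, liver and WAT. In gastrocnemius Atf3, at 13.4, 116, 7.64 and 36.9 CPM, and Jun, at 194, 406, 182 and 239 CPM, had the order of libraries of Hspa1a and Hspa1b instead. The part of these genes in the chaperone values was not tested. Whether the mice or the tissue collection of the pools differed in other ways cannot be told apart from genotype and treatment.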

How the data were processed

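Pooled RNA of 3 mice per group was sequenced by the authors as 100-bp paired-end reads on a DNBSEQ-G400. The authors quantified the reads with Salmon 1.2.1 against protein-coding transcripts of GENCODE M20 (mm10) and deposited expected counts (tximport lengthScaledTPM in R 3.5.0), with 1 row per gene symbol, each bearing 1 transcript. Whether a row sums all transcripts of its gene was not settled. Where a symbol had several rows, the row with the largest total was used.

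CPM was the expected count over the library total, with Wilson intervals and exact Clopper-Pearson intervals of ratios (Python 3.11.15, scipy 1.17.1). The call was a 2-fold change of CPM + 0.5 over genes that were above 0 in each of a tissue's 4 libraries. No test was run, since each group has 1 library. The study's NOISeq procedure was not used, because it simulates replicates. Alternatives were TMM factors (edgeR 4.0.16), median-of-ratios factors (DESeq2 1.42.0), pseudocounts of 0.1 and 1 CPM, a 1.5-fold call, a minimum mean of 50 counts and no filter. The steps were checked on simulated data. Named genes were the 10 members, Nr3c1, some marker genes and the 5 genes most like the summed HSP70 level. Of the lists, some of the genes past 2-fold were named, together with Hsf1, Hsf4 and Hsp90ab1. The members and lists were chosen with earlier results of these data known. Gene models came from GENCODE M21 on the same build, and promoters from RefSeq.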

Additional observations from a re-analysis of the deposited data

Results flagged for a closer look

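The difference between GRmKO and GRf/f in liver had opposite signs under the 2 treatments for Hspa1b, at 1.17 on the log2 scale under vehicle and -1.50 under CORT, and for the sum of Hspa1a and Hspa1b, at 1.14 and -1.45. All of these are past 2-fold, each rests on 1 library of 3 pooled mice against another, and the difference was not tested. The difference between GRmKO and GRf/f under vehicle also had opposite signs in gastrocnemius and liver, at -1.08 and 1.17 for Hspa1b and at -1.12 and 1.14 for the sum, and this difference was not tested either. No group had enough libraries for a check of single libraries against the others.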

How the results depend on the processing

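Of 120 member changes, 33 were past 2-fold, and none of these 33 turned its sign under the scaling and pseudocount alternatives. After either other scaling 5 of the 120 turned from just below 0 to above it, all of them at most 0.067 from 0 in the reported values: Hsph1 with CORT in GRf/f gastrocnemius, Hspe1 with CORT in GRf/f gonadal WAT, and Hspd1, Hspe1 and Bag3 with CORT in GRmKO gonadal WAT. TMM and median-of-ratios scaling each took 1 below 2-fold, Hspa8 in gonadal WAT between genotypes under vehicle, so that 0 members were past it there, and added Hspa8 with CORT in GRf/f gastrocnemius and Hsp90aa1 with CORT in GRmKO gastrocnemius. The following changes of the summed Hspa1a and Hspa1b level moved by more than 0.5 of the width of their counting intervals. Values are under TMM and then median-of-ratios scaling, with the log2 interval in brackets. With CORT in gastrocnemius they were 4.62 and 4.64 in GRf/f (4.46 to 4.63) and 3.22 and 3.21 in GRmKO (2.97 to 3.22). With CORT in GRmKO gonadal WAT they were 0.82 and 0.81 (0.58 to 0.80). Between genotypes under CORT in liver they were -1.53 and -1.53 (-1.54 to -1.38). Both gonadal WAT values and the 4.64 in gastrocnemius fell outside the counting interval. Adding 1 CPM left 1 member past 2-fold between genotypes under CORT in liver, and adding 0.1 CPM changed no call. A 1.5-fold call gave 8 and 5 members higher with CORT in gastrocnemius of GRf/f and GRmKO, against 8.36% and 4.32% of all genes. It gave 6 higher in GRmKO liver (9.44% of genes) and 2 higher in GRmKO gonadal WAT (8.7%). Between genotypes under vehicle it gave 4 members lower in GRmKO in gastrocnemius (9.33% of genes), 2 higher in liver (5.78%) and 4 higher in gonadal WAT (4.68%). Under CORT it gave 2 lower in gonadal WAT (5.45%). The counts of members highest in GRf/f CORT and of members with a lower CORT change in GRmKO, added after seeing the data, moved by at most 1 gene. No paired analysis was possible because each group has 1 library. The spread between mice is unknown, the intervals cover counting error only, and the 2 near-identical HSP70 copies limit the split between them, not their sum.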
